A study of Mus musculus with 12 samples.

Results

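The 10 genes studied here mark cells other than germ cells and were followed in RNA from mouse gonocytes, which are the male germ cells before and around birth. Membership is set by gene symbol, with no threshold on a measured value, and the symbols were chosen with earlier results of these data known. They are the adult globin genes Hba-a1 and Hbb-bs for red blood cells, Ptprc, Csf1r and Adgre1 for leukocytes and macrophages, Pecam1 and Cdh5 for endothelium, Acta2 and Myh11 for peritubular myoid and smooth muscle cells, and Col1a1 for collagen-producing stromal cells. All 10 are among the 35666 genes of the deposited table. The cells came from the testes of mice with the Mvh-Venus transgene, a reporter of the germ cell gene Mvh (Ddx4), at postnatal day 0 (P0). One group was heterozygous for Morc1 (Morc1 (+/-), het) and the other was knockout (Morc1 (-/-), KO), with 3 libraries each. Morc1 encodes a MORC-family ATPase that germ cells make. The 6 samples from P3 were not analysed here. The labels do not say whether libraries came from separate animals, so the p-values measure the spread between these samples, which may be technical. All groups shared the reporter, and no wild-type group was used here.

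The seminiferous cords of the newborn testis hold gonocytes and Sertoli cells within a layer of peritubular myoid cells. The interstitium around them holds Leydig cells, blood vessels, resident macrophages and fibroblasts. RNA of these cells can enter a germ cell preparation. In bulk RNA, fewer cells of a type and less RNA per cell cannot be told apart, nor can a low level from a few other cells be told apart from low expression in the germ cells themselves.

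The libraries held 28363683 to 32816861 reads counted in genes. Morc1 was lower in every KO library (1343 to 1794 normalized counts) than in every het library (4126 to 7485). The germ cell marker Ddx4 was lowest in het replicate 3 and KO replicate 2, at 17605 and 20304 normalized counts, against 28528 to 31038 in the other 4 libraries. The summed level of 15 germ cell genes was also lowest in both, but not every gene followed. Dnmt3l was highest in het replicate 3, and Nanos2, Nanos3 and Sall4 were highest in KO replicate 2. Het replicate 3 also stood apart in Leydig cell markers. The summed level of 7 of them was 340 RPKM there (reads per kb of merged exon length, scaled to 1000000 gene reads) and 6.63 to 16.2 in the other libraries. All 7 had their highest value in het replicate 3. Of 12 Sertoli cell markers, 11 were also highest there, with a sum of 800 against 193 to 402 elsewhere. The part of these cells in the results was not tested.

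The globin genes need care because each has a near-identical neighbour. Over the 429 coding bases of Hba-a1 and Hba-a2 a script found 1 difference, and over the 444 coding bases of Hbb-bs and Hbb-bt also 1. The stretches of 61 coding bases that hold these differences are shown because a read elsewhere in the coding region matches both copies. They come from GENCODE release M21 (GRCm38), run 5′ to 3′ on the coding strand, and have the differing base in capitals.
Hba-a1, coding bases 351 to 411: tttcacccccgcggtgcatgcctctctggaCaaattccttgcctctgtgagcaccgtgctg
Hba-a2, coding bases 351 to 411: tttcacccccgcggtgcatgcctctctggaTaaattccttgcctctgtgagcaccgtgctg
Hbb-bs, coding bases 384 to 444: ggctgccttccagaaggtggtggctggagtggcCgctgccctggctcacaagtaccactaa
Hbb-bt, coding bases 384 to 444: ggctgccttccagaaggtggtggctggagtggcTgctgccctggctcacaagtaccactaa
Counted from 1 at the A of the start codon, the change from Hba-a1 to Hba-a2 is C381T and that from Hbb-bs to Hbb-bt is C417T. How reads that match several places were counted is not given in the sources used here, so the split between copies is uncertain and the sum of each pair is given too.

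None of the 10 markers passed a test between the genotypes. All 10 passed the filter, a mean of at least 10 normalized counts, and 0 of them passed an adjusted p under 0.05 in limma. Of all 26005 genes tested, 0.473% did. None of the 10 had an unadjusted limma p under 0.05, against 6.86% of all genes tested, and the edgeR and DESeq2 tests on recovered reads also called 0, with 0 and 1 (Csf1r) at an unadjusted p under 0.05. The smallest limma adjusted p among them was 0.794, that of Adgre1. The log2 fold changes were positive for 7 and negative for 3, with a median of 0.08 beside -0.02 over all genes tested. Of all genes tested, 51.6% had a negative value. In 2 of the 10, Csf1r and Acta2, the values of the genotypes did not overlap, as was the case for 12.7% of all genes tested. What varied was the library: the highest value of a marker was between 1.49 times (Myh11) and 9.16 times (Hba-a1) its lowest. KO replicates 2 and 3 each held the highest value of 3 markers, het replicate 1 of 2, het replicates 2 and 3 of 1 each, and KO replicate 1 of 0.

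**Figure D1:**
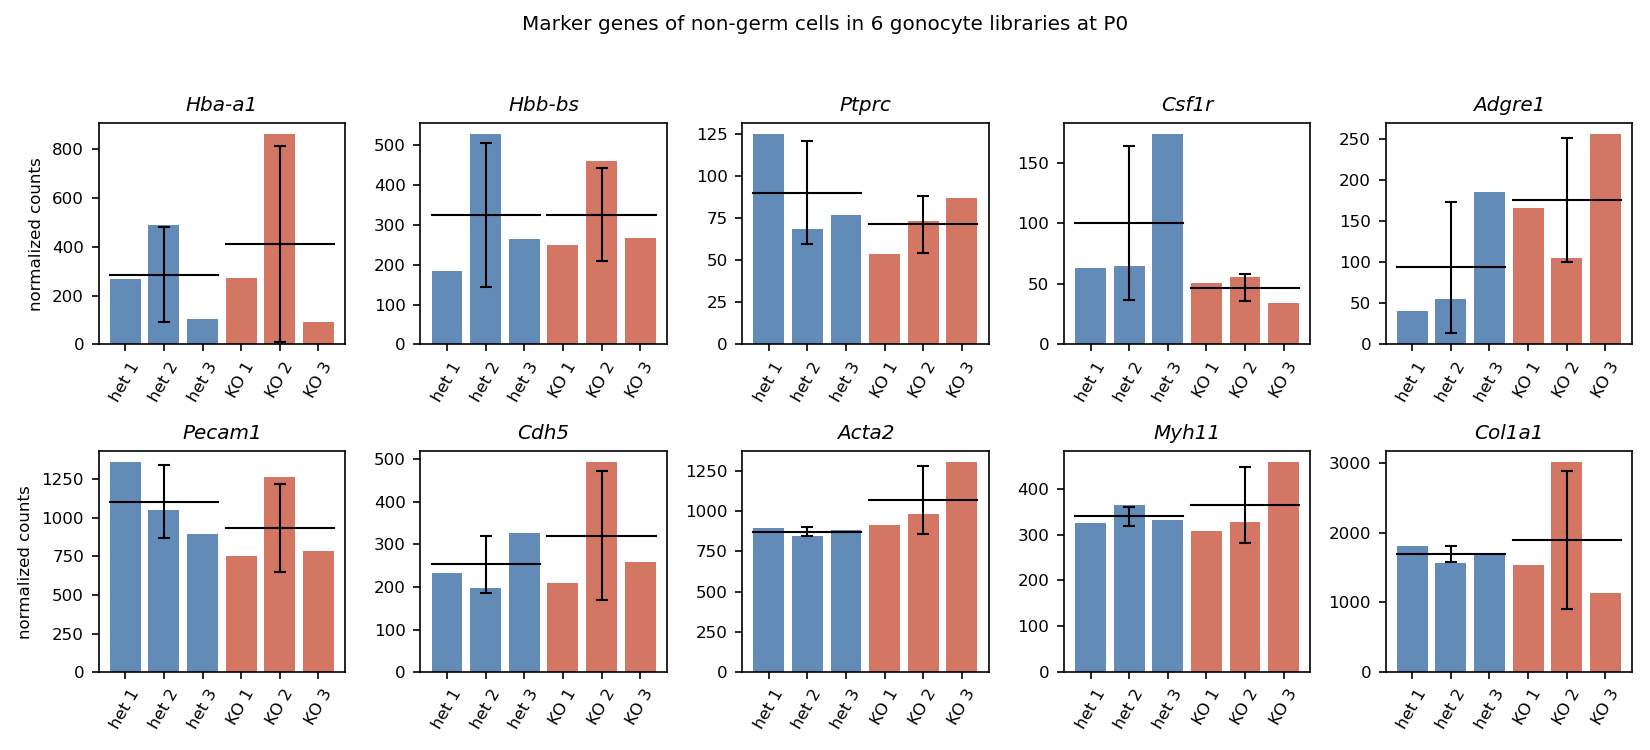
Normalized counts (y axis, linear from 0) of the 10 marker genes in each of the 6 libraries (x axis, het in blue and KO in red), with the mean of each genotype as a horizontal line and its SD as an error bar. Hba-a1, Cdh5 and Col1a1 are highest in KO replicate 2, while Acta2 and Myh11 are nearly level in 5 libraries and highest in KO replicate 3.

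**Figure D2:**
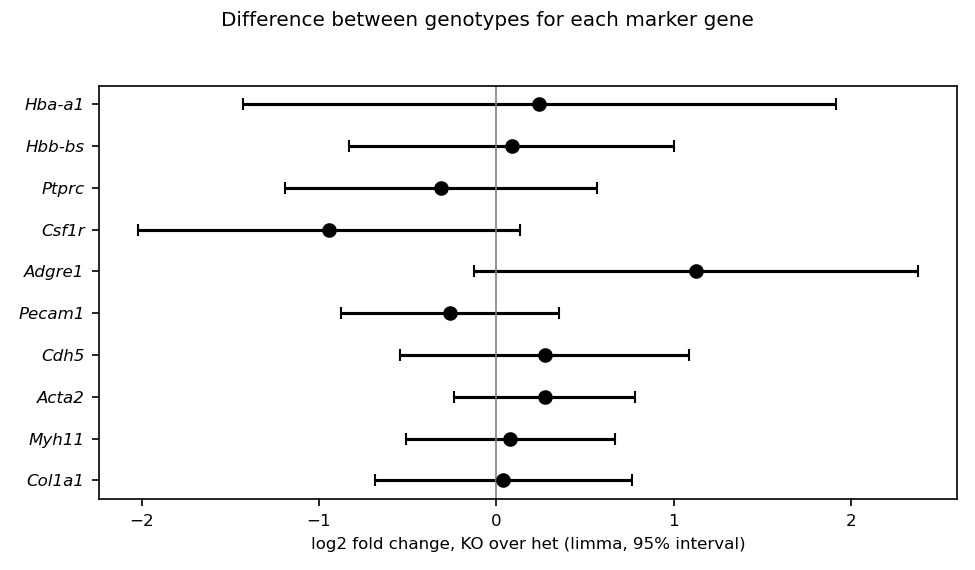
Log2 fold change of KO over het for each marker (x axis, log2 of normalized count + 1) from limma, as a point with its 95% interval. Every interval crosses 0, and those of Hba-a1, Csf1r and Adgre1 are the widest.

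Levels of different genes were compared in RPKM. The order of the means over 6 libraries was Acta2 (14.5), Hba-a1 (14.1), Hbb-bs (13.9), Col1a1 (9.03), Pecam1 (5.37), Cdh5 (2.26), Myh11 (1.52), Adgre1 (1.37), Csf1r (0.428) and Ptprc (0.145). The ranges of each gene and the next in this order overlapped throughout. Within libraries, Col1a1 was above Pecam1, Pecam1 above Cdh5, Adgre1 above Csf1r and Csf1r above Ptprc in 6 of 6. Acta2, Hba-a1 and Hbb-bs changed places from library to library, as did Myh11 and Adgre1. On the same scale Ddx4 had a mean of 279. As a percent of Ddx4 in the same library, Acta2 stood at 3.73 to 6.88, Hba-a1 at 1.21 to 15.8, Col1a1 at 1.82 to 6.81 and Ptprc at 0.0303 to 0.0721. The merged exons of Ptprc span 18313 bp, more than one of its transcripts, which lowers its level per length.

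Hba-a1 (ENSMUSG00000069919, chromosome 11 from 32283511 to 32284465, plus strand, GRCm38) encodes the alpha chain of adult hemoglobin. Here and in what follows, 3 values of a genotype stand in the order of its replicates. Het libraries had 269, 488 and 102 normalized counts and KO libraries 274, 862 and 94.1. It was highest in KO replicate 2 and lowest in KO replicate 3, so that the KO values enclosed all het values. The means were 286 ± 193 in het and 410 ± 402 in KO (SD, n = 3). In limma the difference was 0.24 on the log2 scale (SE 0.75; adjusted p of 0.976), with a 95% interval from -1.43 to 1.91. It turned to -0.56 without KO replicate 2 and to -0.36 without het replicate 3.

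Hba-a2, its copy, had the same order of libraries: 57.2, 114 and 31.2 in het and 66.3, 139 and 27.4 in KO. Both copies together had 326, 602 and 134 in het, and 340, 1001 and 121 in KO. Hba-a1 held 76.6% to 86.1% of the reads of the pair. The libraries therefore ranked alike for Hba-a1 alone, for Hba-a2 alone and for their sum.

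Hbb-bs (ENSMUSG00000052305, chromosome 7 from 103826534 to 103828096, minus strand) encodes an adult beta chain. It had 183, 527 and 263 normalized counts in het and 248, 459 and 267 in KO. Het replicate 2 was highest and KO replicate 2 next, and the means were the same to within rounding: 325 ± 180 and 325 ± 116 (SD, n = 3). Its log2 fold change by limma was 0.09 with an SE of 0.41 and an adjusted p of 0.987, with a 95% interval from -0.83 to 1.00. It turned to -0.25 without het replicate 1 and to -0.19 without KO replicate 2, and was 0.007 without het replicate 3. Hbb-bt had 80.1, 156 and 96.6 in het and 50.5, 71.3 and 128 in KO, and the sum of the pair was 263, 684 and 360 in het and 299, 530 and 396 in KO. Hba-a1 and Hbb-bs thus shared their 2 highest libraries, het replicate 2 and KO replicate 2, in opposite order.

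Between the genotypes no red cell gene passed the test. Of 16 listed erythroid genes 14 were in the table and 13 were tested, the 4 adult globin genes among them, with 0 called by limma, 0 with an unadjusted p under 0.05, 6 positive and 7 negative log2 fold changes and a median of -0.02. Alas2, the first enzyme of heme synthesis in red cell precursors, had 894, 790 and 806 normalized counts in het and 921, 617 and 789 in KO, and was singled out after its values were seen. Tfrc, the transferrin receptor that many dividing cells use for iron uptake, had 2258 to 2829 in all libraries. The embryonic globin Hba-x was at 33.4, 42.5 and 34.1 in het and 27.7, 22.7 and 21.6 in KO, and these values did not overlap. The embryonic globin Hbb-y was below the filter, with 7, 2 and 16 reads in het and 0 in each KO library, which allows up to 3 reads a library, and no fold is given. The summed level of the erythroid list was 55.0 to 82.9 RPKM in het and 51.1 to 94.2 in KO.

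Ptprc (ENSMUSG00000026395, chromosome 1 from 138062861 to 138175708, minus strand) encodes CD45, the surface phosphatase of nearly all leukocytes. It had 125, 68.6 and 77.0 normalized counts in het and 53.4, 73.4 and 87.2 in KO, from 54 to 131 reads a library. Het replicate 1 was highest and KO replicate 1 lowest, and the other 4 libraries lay between 68.6 and 87.2. Limma gave a log2 fold change of -0.31 (SE 0.39) at an adjusted p of 0.936, with a 95% interval from -1.19 to 0.57.

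Csf1r (ENSMUSG00000024621, chromosome 18 from 61100598 to 61132149, plus strand) encodes the receptor for the macrophage growth factor CSF1. It had 62.9, 64.7 and 174 normalized counts in het and 50.5, 55.8 and 34.3 in KO. All KO values lay under all het values, and het replicate 3 was far above the rest. The means were 100.4 ± 63.4 and 46.9 ± 11.2 (SD, n = 3), with an exact permutation p of 0.1 (two-sided), the smallest that 3 against 3 can give. In limma the difference was -0.94 on the log2 scale (SE 0.48; adjusted p of 0.799), and without het replicate 3 it was -0.47 (limma adjusted p 0.85). Csf1r shares 873 bp of exon with Hmgxb3 on the opposite strand. Hmgxb3 had 888 to 1891 normalized counts, and strand handling is not given in the sources used here, so reads of the shared stretch cannot be told apart.

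Adgre1 (ENSMUSG00000004730, chromosome 17 from 57358691 to 57483527, plus strand) encodes F4/80, a surface protein of mouse macrophages. It had 41.0, 55.1 and 185 normalized counts in het and 166, 105 and 256 in KO. Het replicates 1 and 2 were the 2 lowest libraries, while het replicate 3 lay within the KO range. The means were 93.8 ± 79.6 and 176 ± 75.6 (SD, n = 3), with an exact permutation p of 0.3 (two-sided). Its log2 fold change by limma was 1.13 with an SE of 0.56 and an adjusted p of 0.794, with a 95% interval from -0.12 to 2.38. Without het replicate 3 it was 1.77 (limma adjusted p 0.244) and without het replicate 1 it was 0.70. The leukocyte markers ranked the libraries differently: KO replicate 3 was highest for Adgre1 and lowest for Csf1r.

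Of 20 listed macrophage and leukocyte genes 19 were in the table and all 19 were tested. Limma called 0, and 2 had an unadjusted p under 0.05, beside 6.86% of all genes tested. The log2 fold changes were 5 positive and 14 negative, with a median of -0.31. Those 2, named after their values were seen, went opposite ways. Cd53, a leukocyte tetraspanin, had 8.58, 9.66 and 33.2 normalized counts in het and 71.2, 39.3 and 53.9 in KO (log2 fold change of 1.84 with SE 0.62 and adjusted p of 0.483 in limma). Cx3cr1, a chemokine receptor of monocytes and macrophages, had 29.6, 16.4 and 153 in het and 17.8, 8.27 and 0 in KO (log2 fold change of -2.96 with SE 1.17 and adjusted p of 0.644 in limma).

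The genes of complement component C1q, which tissue macrophages make in quantity, separated libraries and not genotypes. C1qb had 13.4, 18.4 and 488 normalized counts in het and 11.9, 128 and 15.7 in KO. C1qa had 10.5, 1.93 and 251 in het and 15.8, 124 and 2.94 in KO, and C1qc had 13.4, 7.73 and 188 in het and 5.94, 46.5 and 27.4 in KO. Each was highest in het replicate 3 and next in KO replicate 2, the libraries with the least Ddx4. The lysozyme gene Lyz2 (55.3, 13.5 and 469 in het, 15.8, 265 and 82.3 in KO) and Tyrobp, a signalling adaptor of myeloid cells (10.5, 20.3 and 231 in het, 13.9, 79.6 and 40.2 in KO), ranked these 2 libraries the same way. Counted after these values were seen, 5 of the 19 genes (26.3%) had their 2 highest values in this pair of libraries, beside 14.6% of all genes tested. The same held for 3 of 7 Leydig, 3 of 12 Sertoli, 3 of 14 stromal and 4 of 20 endothelial genes tested. It held for 1 of 13 erythroid, 1 of 14 myoid and 0 of 15 germ cell genes. Cd163 of the macrophage and leukocyte list ran the other way: it was lowest in het replicate 3 (72.2) and next lowest in KO replicate 2 (97.1). In the other libraries it had 198 to 312. F13a1 was highest in het replicate 3 (285) but lowest in KO replicate 2 (24.8). In het replicate 3, Cd68, Spi1 and Itgam were each next to lowest (73.1, 168 and 30.2), while 9 of the 19 genes were highest. The members did not share the order of the C1q genes either: for Ptprc, Csf1r and Adgre1 alike, KO replicate 2 was the fourth highest library.

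The genes of that list with the highest level per length were Fcer1g and Coro1a, and Lyz2 after them. Fcer1g, the common gamma chain of Fc receptors, had 802 to 1716 normalized counts, and Coro1a, an actin regulator of leukocytes, had 2371 to 4246. Per length they averaged 45.7 and 39.3 RPKM, beside 2.26 for C1qa, and their highest values were not in het replicate 3. The summed level of the list was 101 to 151 in het and 88.2 to 155 in KO, highest in het replicate 3 and KO replicate 2. The log2 ratio of the mean sums, KO over het, was -0.08, and 0.13 without het replicate 3.

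**Figure D3:**
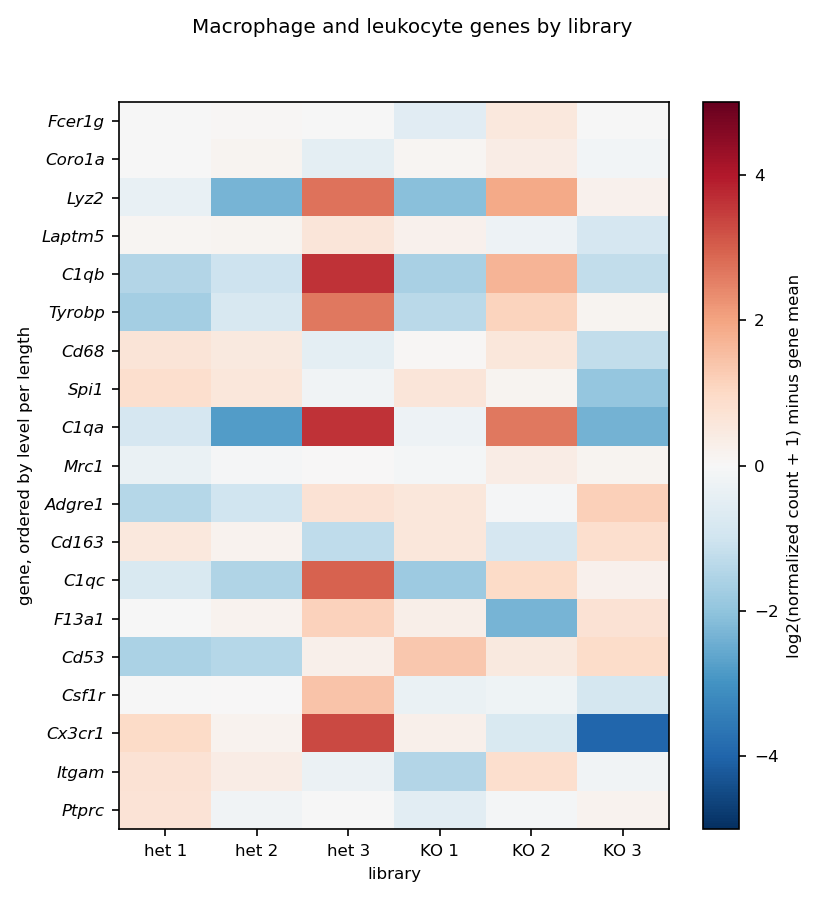
Centred log2(normalized count + 1) of the 19 macrophage and leukocyte genes (rows, ordered by level per length) in the 6 libraries (columns), with red above and blue below each gene's own mean. C1qa, C1qb, C1qc, Lyz2 and Tyrobp are red in het replicate 3 and KO replicate 2, while Fcer1g, Coro1a, Mrc1 and Ptprc are pale throughout.

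Pecam1 (ENSMUSG00000020717, chromosome 11 from 106654217 to 106750628, minus strand) encodes CD31, an adhesion protein of endothelial cells that mouse fetal germ cells are also known to carry. It had 1361, 1051 and 895 normalized counts in het and 753, 1260 and 787 in KO. Het replicate 1 and KO replicate 2 were highest, and the genotypes overlapped. The means were 1102 ± 237 and 933 ± 283 (SD, n = 3). Limma gave a log2 fold change of -0.26 (SE 0.28) at an adjusted p of 0.923, with a 95% interval from -0.87 to 0.36, and without het replicate 3 it was -0.40.

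Cdh5 (ENSMUSG00000031871, chromosome 8 from 104101625 to 104144511, plus strand) encodes VE-cadherin of endothelial junctions. It had 234, 198 and 328 normalized counts in het and 210, 494 and 259 in KO. KO replicate 2 stood above the rest and het replicate 3 came next, a different order from Pecam1. The means were 253 ± 67.0 and 321 ± 152 (SD, n = 3). In limma the difference was 0.27 on the log2 scale (SE 0.37; adjusted p of 0.939), and it was 0.48 without het replicate 3 and turned to -0.09 without KO replicate 2. Per length, Pecam1 was above Cdh5 in every library.

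All 20 listed endothelial genes were tested, with 0 called by limma and 2 with an unadjusted p under 0.05, beside 6.86% of all genes tested. The log2 fold changes were 7 positive and 13 negative, with a median of -0.11. Tek, the angiopoietin receptor of vessels, had 834, 1043 and 587 normalized counts in het and 2344, 1244 and 2396 in KO, without overlap. Its log2 fold change by limma was 1.26 with an SE of 0.32 and an adjusted p of 0.201; DESeq2 on recovered reads called it, with an adjusted p of 0.00937. Vwf, the clotting factor that endothelium stores, went the other way: 1337, 1105 and 1054 in het and 819, 596 and 663 in KO, also without overlap (log2 fold change of -0.75 with SE 0.23 and adjusted p of 0.387 in limma). Vwf was named after its values were seen, whereas Tek is also among the 3 genes of the list with the highest level per length. The other 2 of these, Egfl7 and Plvap, had 1198 to 1594 and 429 to 604 normalized counts over all libraries. The summed level of the list was 70.4 to 79.5 in het and 70.5 to 82.4 in KO.

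Acta2 (ENSMUSG00000035783, chromosome 19 from 34241090 to 34255590, minus strand) encodes smooth muscle alpha-actin, the usual marker of peritubular myoid cells. It had 894, 844 and 883 normalized counts in het and 914, 985 and 1307 in KO. Every KO library was above every het library, by a small margin in KO replicate 1. The means were 874 ± 26.3 and 1069 ± 209 (SD, n = 3), with an exact permutation p of 0.1 (two-sided). Limma gave a log2 fold change of 0.27 (SE 0.23) at an adjusted p of 0.896, with a 95% interval from -0.24 to 0.78. Without KO replicate 3 it was 0.12 (limma adjusted p 0.992).

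Myh11 (ENSMUSG00000018830, chromosome 16 from 14194535 to 14291372, minus strand) encodes the myosin heavy chain of smooth muscle. It had 325, 364 and 331 normalized counts in het and 308, 328 and 459 in KO. KO replicate 3 was highest, as for Acta2, and the other 5 libraries lay close together. The means were 340 ± 21.1 and 365 ± 82.0 (SD, n = 3). In limma the difference was 0.08 on the log2 scale (SE 0.27; adjusted p of 0.978), with a 95% interval from -0.51 to 0.67, and it turned to -0.10 without KO replicate 3.

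All 14 listed myoid and smooth muscle genes were tested, with 0 called by limma, 0 with an unadjusted p under 0.05, 7 positive and 7 negative log2 fold changes and a median of -0.03. Actg2, the gamma-actin of smooth muscle, had 494 to 1284 normalized counts, and Des, the intermediate filament protein of muscle, had 1318 to 1962. Tagln, an actin-binding protein abundant in smooth muscle, was in contrast near 0, at 15.3, 2.90 and 31.2 in het and 23.7, 26.9 and 7.84 in KO. It was singled out after its values were seen. Per length, Tagln averaged 0.303 beside 14.5 for Acta2. The summed level of the list was 87.4 to 88.9 in het and 91.1 to 103 in KO, without overlap. The log2 ratio of the mean sums, KO over het, was 0.17. It was 0.10 from summed normalized counts and 0.23 without Actg2, the highest gene of the list. The difference between these sums was not tested.

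Col1a1 (ENSMUSG00000001506, chromosome 11 from 94936224 to 94953042, plus strand) encodes the more abundant chain of type I collagen, which fibroblasts secrete. It had 1805, 1565 and 1710 normalized counts in het and 1529, 3013 and 1141 in KO. KO replicate 2 was highest and KO replicate 3 lowest, so that the KO values enclosed all het values. The means were 1693 ± 121 and 1894 ± 988 (SD, n = 3). Its log2 fold change by limma was 0.04 with an SE of 0.33 and an adjusted p of 0.993, with a 95% interval from -0.69 to 0.77, and it turned to -0.36 without KO replicate 2.

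All 14 listed stromal genes were tested, with 0 called by limma, 5 positive and 9 negative log2 fold changes and a median of -0.10. Sparc, a secreted matrix protein, was the 1 gene with an unadjusted p under 0.05, beside 6.86% of all genes tested. It had 6580, 4634 and 12565 normalized counts in het and 3472, 5080 and 4367 in KO (log2 fold change of -0.77 with SE 0.33 and adjusted p of 0.701 in limma). Its highest value fell in het replicate 3, and the genotypes overlapped. Col5a1 was also highest there, at 6377, against 1311 to 4244 elsewhere, whereas Col6a1 ran from 1553 to 2176. Col1a2, which encodes the partner chain of Col1a1 and was named after its values were seen, had 1321, 1119 and 1821 in het and 1352, 1697 and 1236 in KO. Levels summed over the list were 96.0 to 199 RPKM in het and 87.0 to 115 in KO. The log2 ratio of the mean sums, KO over het, was -0.51, and -0.16 without het replicate 3.

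**Figure D4:**
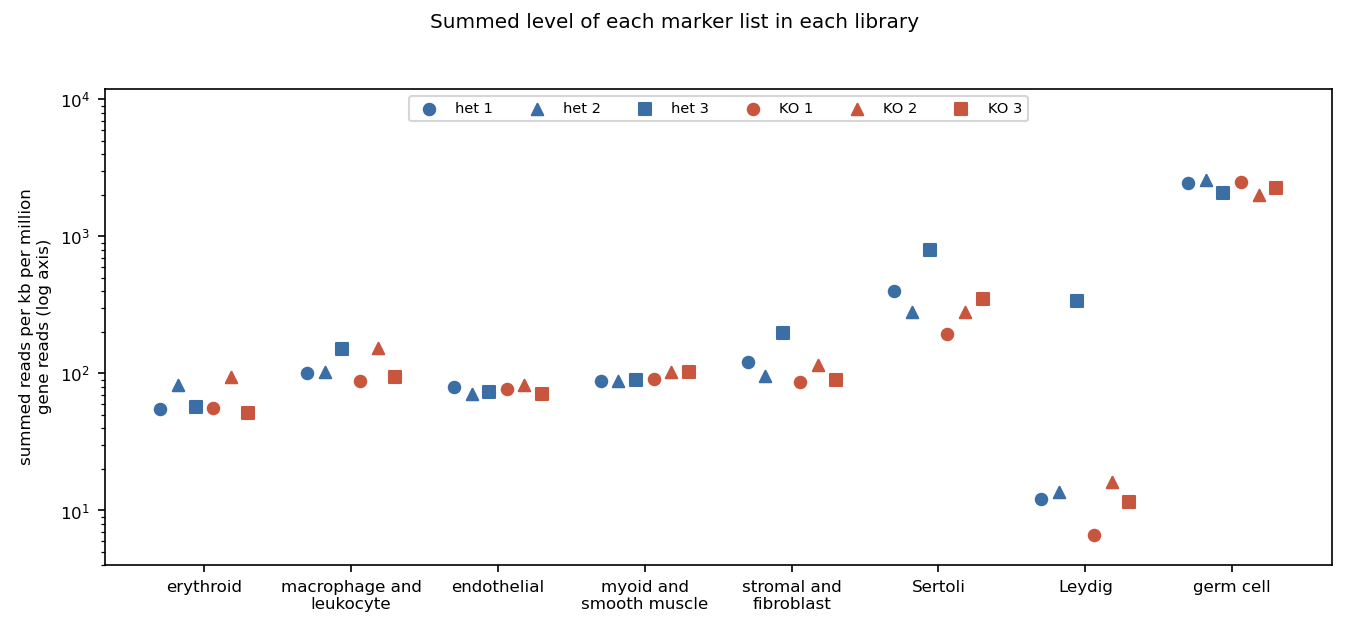
Summed level of each marker list (y axis, RPKM, log axis) in each library, with het in blue, KO in red and the replicate given by the symbol. Leydig markers of het replicate 3 reach 340 against at most 16.2 elsewhere, while the endothelial and myoid sums stay between 70.4 and 103.

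The summed levels of the 5 lists of vessel, blood and interstitial cells lay between 51.1 and 199 in every library, beside 1998 to 2571 for 15 germ cell genes. These sums rest unevenly on their genes. Averaged over libraries, Sparc held 45.8% of the stromal sum, Fcer1g 39.7% of the macrophage and leukocyte sum, and Mael 30.5% of the germ cell sum. In the erythroid, endothelial and myoid lists the highest gene held 21.4% or less. All 35666 genes of the deposited table had a mean of at least 1 normalized count, so none of them could be at 0 in every library. Hbb-bh1, Ahsp and Fcgr1 of these lists were not in the table. Among the Sertoli markers 0 of 12 were called by limma and 4 (Amh, Clu, Sox9 and Dhh) had an unadjusted p under 0.05, beside 6.86% of all genes tested. All 12 log2 fold changes were negative, beside 51.6% of all genes tested, with a median of -0.69. Their summed level had a log2 ratio of -0.84, and of -0.31 without het replicate 3, where 11 of the 12 were highest. Amh, Sox9 and Dhh were named after their values were seen. Among the Leydig markers 0 of 7 were called by limma, 1 was positive and 6 were negative, with a median of -1.58. The log2 ratio of their sum was -3.41, and -0.18 without het replicate 3. Of the 10 members, Csf1r alone had its highest value in het replicate 3, the library with the high Leydig level. C1qa, C1qb, C1qc, Lyz2, Tyrobp, Cx3cr1, Sparc and Col5a1 of the wider lists were also highest there.

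The genes with the most similar profile over the 6 libraries were sought by the root-mean-square difference of centred log2 values. For Acta2 the nearest was Nudcd1 (difference 0.03 on the log2 scale), followed by C130036L24Rik and Dcp1b. For Myh11 the nearest were Lyar (0.03), Arntl2 and Caml. Cdh5 was nearest to Mapk12 (0.05), Aars2 and Tbc1d13, Pecam1 to Mettl23 (0.07), Nadsyn1 and Dgkq, and Col1a1 to Oasl2 (0.08), Scmh1 and Gm10617. Ptprc was nearest to 4930546C10Rik (0.09), 1700019E08Rik and Vps45, and Csf1r to C030010L15Rik (0.11), Gm6548 and Spock2. The differences were larger for Hbb-bs (1110018N20Rik at 0.16, Gm43555 and Gm16230), Hba-a1 (Gm45762 at 0.21, E230015B07Rik and Gm37755) and Adgre1 (Svs3b at 0.23, Tmprss15 and 4933401D09Rik). The centred profiles of these 3 members had a root-mean-square of 0.53, 1.13 and 0.94 on the log2 scale, beside 0.19 (Myh11) to 0.70 (Csf1r) in the other 7. No member or listed marker of the same cell type was among these 30 genes, not even Hba-a2, which ranked the libraries as Hba-a1 did. With 6 values per gene and 26005 genes tested, this search cannot show whether markers of a cell type vary together.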

How the data were processed

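The deposited gene table holds a signal, here called normalized counts. Its name says that the authors scaled read counts with DESeq2, so each library was divided by a single size factor. The submitters' processing notes name cutadapt 1.18, HISAT2 2.1.0, featureCounts 1.5.2, DESeq2 1.26.0 and GRCm38. The annotation used for counting, strand handling and how reads with several matches were counted are not given in the sources used here. Per the labels' protocols, cDNA was made with a low-input kit. In each column 100% of values were whole multiples of the smallest value within a relative tolerance of 1e-06, and reads were recovered from these steps. Symbols and positions were taken from GENCODE M21 for 35560 of 35666 genes. Columns were assigned by genotype and replicate number. No 2 replicates agreed within counting noise (mean chi-square per gene at least 11.1, with 1 expected). Reads carry no molecular identifiers here.

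The main test was limma 3.58.1 (R 4.3.3; two-sided, eBayes with a trend), fitted without covariates to log2(normalized count + 1) of genes whose mean reached 10, with Benjamini-Hochberg adjustment over all genes. Fold changes on this scale understate those of low genes. The script was tested on simulated data. Alternatives were the pseudocount, the filter, the trend, quantile normalization, edgeR 4.0.16 and DESeq2 1.42.0 on recovered reads, a replicate block and leaving out libraries. Single genes were compared by exact permutation of the 6 libraries (SciPy 1.17.1). Named genes were the 10 members, the adult and embryonic globin copies, and the 3 genes of each list with the highest level per length. Added to these were any called gene of a list and the 3 nearest profiles of each member. Other genes of the lists (Alas2, Cd53, Cx3cr1, C1qa, C1qb, C1qc, Tyrobp, Cd163, F13a1, Cd68, Spi1, Itgam, Vwf, Tagln, Col1a2, Amh, Sox9, Dhh, Dnmt3l, Nanos2, Nanos3 and Sall4) were named after their values were seen. Members and lists were chosen with earlier results of these data known. The transposable element table was not used.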

Additional observations from a re-analysis of the deposited data

How the results depend on the processing

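The count of called markers was 0 in every alternative run here, with limma, edgeR and DESeq2. Values of single markers were kept for all alternatives except the changed filters and limma without trend. Over those kept, the smallest adjusted p of a marker was 0.114, from limma. It was that of Adgre1 without het replicate 3 and KO replicate 2, with a log2 fold change of 2.09. Of 140 alternative values of the 10 fold changes, 129 kept their direction and 11 did not. The reversed log2 fold changes came from leaving out libraries. For Hba-a1, leaving out single libraries gave -0.563 (KO 2) to 1.028, with -0.362 without het 3. For Hbb-bs it gave -0.254 (het 1) to 0.507, with -0.190 without KO 2. For Cdh5 the range was -0.087 (KO 2) to 0.529, for Myh11 -0.097 (KO 3) to 0.190, and for Col1a1 -0.356 (KO 2) to 0.344, with -0.015 without het 2. Without het replicate 3 and KO replicate 2 together the values were -1.167 for Hba-a1, -0.269 for Hbb-bs and -0.348 for Col1a1. Leaving out that pair, and edgeR with a block, were chosen after seeing the data.

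Over all genes, 112 were higher and 11 lower. The higher count was 70 with a pseudocount of 0.1, 177 with a pseudocount of 10, 400 with DESeq2 and 72 without het replicate 3 and KO replicate 2. Leaving out single libraries gave 17 (KO replicate 3) to 105. The lower count was 5 with a pseudocount of 0.1, 3 without trend and 65 with DESeq2, and 1 to 7 when single libraries were left out. With the replicate block limma called 64 higher and 5 lower and edgeR 38 and 0 (470 lower genes had an unadjusted p under 0.05). Same-numbered libraries had weak correlations of deviations across genes (0.138, -0.163 and -0.044), and differently numbered ones had -0.2 to 0.206. With 3 libraries per genotype this cannot show whether the numbers pair the samples, and the main test used no pairing.

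The log2 ratio of the summed Leydig level, KO over het, was -3.41 and ran from -3.95 to -0.18 when libraries were left out, the latter without het replicate 3. For the wider lists DESeq2 called Tek and the Sertoli marker Clu (adjusted p 0.0477), which limma and edgeR did not, the smallest edgeR adjusted p in their lists being 0.18 and 0.256. No other list's ratio moved by more than 1 SD between libraries. Ptprc rested on 54 to 131 reads a library and had a limma SE of 0.39, Col1a1 on 1164 to 2916 reads with an SE of 0.33, and Hba-a1 on 96 to 834 reads with an SE of 0.75; how much of these errors is counting noise was not tested.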
